A study of Mus musculus with 24 samples.

Results

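Purkinje cells are the large neurons whose axons carry the whole output of the cerebellar cortex. They receive glutamate from the parallel fibres of cerebellar granule cells and from climbing fibres, and part of their answer is calcium released from internal stores. The proteins that release, bind and buffer that calcium are therefore made at high levels, and several of their genes serve as markers of the cell type. Such genes were taken by name from the gene count table: Pcp2, Pcp4, Calb1, Car8, Itpr1, Aldoc, Slc1a6, Ppp1r17, Foxp2 and Rgs8, which is 10 of the 40836 genes listed. All 10 passed the filter on low counts, as did 20437 genes in all. On textbook knowledge Pcp2, Ppp1r17, Car8, Slc1a6 and Rgs8 were set apart as Purkinje-restricted within the brain, and Calb1, Itpr1, Aldoc, Pcp4 and Foxp2 as genes also made in forebrain.

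Polyadenylated RNA of mouse brain was sequenced in 24 libraries. They form 6 groups of 4, E3-05, E3-10, E3-15, E4-05, E4-10 and E4-15, where E3 or E4 is the E code and the last digits are the time code. Neither code is spelled out in the labels, and the series title names ApoE4, AsxL1 and LXRα. The titles also give a month, 6 in all, and call the libraries biological replicates; no label says whether each is its own animal, and p-values reflect only how far these libraries vary, which may be technical. Total counts ran from 37.4 M to 99.5 M (mega) per library, with a median of 48.8 M.

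The columns of the count table are headed by numbers, and the libraries were divided into the 8 whose column number is a multiple of 3 and the other 16. The 8 are E3-05 2, E4-05 3, E3-10 1, E4-10 2, E3-10 4, E4-15 1, E3-15 3 and E4-15 4, so each of the groups E3-05, E3-15, E4-05 and E4-10 holds 1 of them and E3-10 and E4-15 hold 2. The division cuts across E3 and E4 evenly, with 4 of the 8 and 8 of the 16 being E3. It had been recognised in earlier results of these data from genes of cerebellum and hindbrain, so levels across it are a description and carry no p-value. E3-10 1, 1 of the 8, stood apart from the other 7 in most of the 10 genes, and results that rest on it are given with and without it. Levels are in CPM, the counts of a gene per M counts of its library after TMM scaling, and are compared between libraries, not between genes. In bulk tissue, fewer cells of a type and less RNA per cell cannot be told apart.

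**Figure D1:**
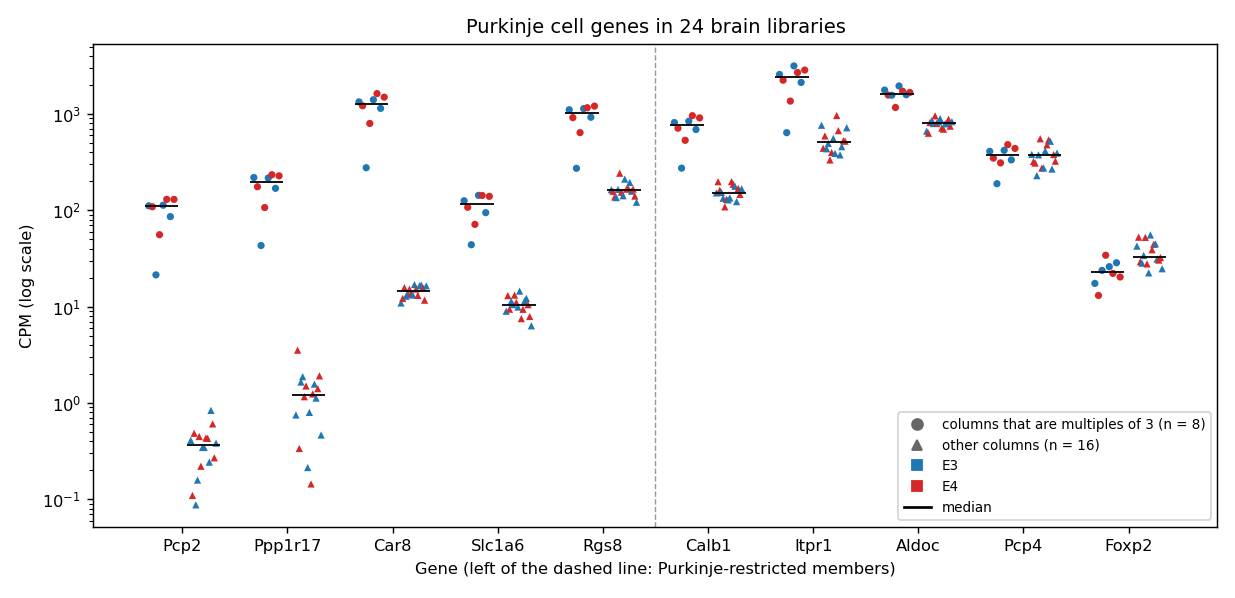
Level of each Purkinje cell gene in CPM on a log axis, with circles for the 8 libraries in columns that are multiples of 3 and triangles for the other 16, blue for E3 and red for E4; black bars are medians. The sets lie far apart for Pcp2, Ppp1r17 and Car8, come closer towards Aldoc, and overlap for Itpr1, Pcp4 and Foxp2.

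Pcp2, a small regulator of G protein signalling, was the member with the widest separation. It was at 111.5 CPM in E3-05 2, 109.0 in E4-05 3, 21.4 in E3-10 1, 55.9 in E4-10 2, 113.1 in E3-10 4, 130.2 in E4-15 1, 86.2 in E3-15 3 and 130.1 in E4-15 4. In the other 16 libraries it ran from 0.0879 to 0.839 CPM with a median of 0.365, which is 5 to 35 counts per library. Even E3-10 1, the lowest of the 8, was 25.5 times above the highest of the 16. The fitted difference between the sets was 7.95 on the log2 scale (SE 0.28, edgeR), and the median of the 16 was 0.331% of the median of the 8.

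Ppp1r17, an inhibitor of protein phosphatases that is a substrate of the cGMP-dependent kinase, was at 219.4 CPM in E3-05 2, 175.9 in E4-05 3, 43.2 in E3-10 1, 107.0 in E4-10 2, 216.9 in E3-10 4, 234.4 in E4-15 1, 169.4 in E3-15 3 and 228.4 in E4-15 4. The 16 ran from 0.145 to 3.54 CPM (median 1.20), a wide span at these low counts. Their median was 0.613% of that of the 8, and the log2 difference was 7.22 (SE 0.35). Car8, a carbonic anhydrase relative without enzyme activity that binds the IP3 receptor, was at 1338 CPM in E3-05 2, 1219 in E4-05 3, 277.3 in E3-10 1, 798.6 in E4-10 2, 1408 in E3-10 4, 1631 in E4-15 1, 1145 in E3-15 3 and 1497 in E4-15 4. The 16 lay between 10.9 and 17.0 CPM (median 14.4), a narrow band. The log2 difference was 6.30 (SE 0.20), and 1.13% of the median remained in the 16.

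Slc1a6, the Purkinje glutamate transporter EAAT4, and Rgs8, which speeds the shut-off of G proteins, kept more of their level outside the 8. Slc1a6 was at 125.9 CPM in E3-05 2, 107.7 in E4-05 3, 44.0 in E3-10 1, 71.6 in E4-10 2, 143.2 in E3-10 4, 142.8 in E4-15 1, 94.7 in E3-15 3 and 139.9 in E4-15 4, against 6.33 to 14.5 CPM (median 10.5) in the 16. Its log2 difference was 3.32 (SE 0.17). For Rgs8 the 8 values, in the same order of libraries, were 1108, 917.5, 273.3, 641.3, 1139, 1163, 926.4 and 1209 CPM, and the 16 ran from 121.5 to 243.2 CPM (median 161.0). Its log2 difference was 2.46 (SE 0.18), and 15.8% of the median level remained in the 16. Rgs8 was placed among the restricted genes by textbook knowledge, yet its level in the 16 was far from zero, so the 5 restricted members formed a gradient and not one block.

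Among the members also made in forebrain, Calb1, the calcium buffer calbindin, was at 816.2 CPM in E3-05 2, 712.7 in E4-05 3, 274.4 in E3-10 1, 533.6 in E4-10 2, 842.8 in E3-10 4, 961.7 in E4-15 1, 690.9 in E3-15 3 and 911.8 in E4-15 4. The 16 ran from 108.8 to 198.9 CPM (median 152.6), below every one of the 8. Its log2 difference was 2.21 (SE 0.15), close to that of Rgs8. Itpr1, the IP3 receptor that lets calcium out of the endoplasmic reticulum, was at 2577, 2245, 640.8, 1362, 3158, 2698, 2129 and 2859 CPM in the same order of libraries. Its 16 values ran from 333.6 to 965.8 CPM (median 509.1), and the sets overlapped only through E3-10 1, which lay below 4 of the 16. The log2 difference was 2.04 (SE 0.23).

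Aldoc, the glycolytic aldolase C known as zebrin II, marks alternating stripes of Purkinje cells and is also a gene of astrocytes. It was at 1773 CPM in E3-05 2, 1573 in E4-05 3, 1568 in E3-10 1, 1170 in E4-10 2, 1957 in E3-10 4, 1724 in E4-15 1, 1586 in E3-15 3 and 1676 in E4-15 4. The 16 lay between 632.0 and 957.8 CPM (median 799.1), so the sets did not overlap, with a log2 difference of 0.99 (SE 0.07). E3-10 1 was not low here. Its level was 93.6% of the median of the other 7.

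Pcp4, a calmodulin-binding peptide, and Foxp2, a transcription factor of Purkinje cells and of striatal and thalamic neurons, overlapped between the sets, with medians in the 16 of 99.8% and 144% of those in the 8. Pcp4 was at 410.0, 348.8, 189.2, 311.4, 420.3, 481.4, 334.4 and 439.6 CPM in the same order of libraries and ran from 229.3 to 554.0 CPM (median 378.5) in the 16. The log2 difference was -0.035 (SE 0.18); it was 0.14 (SE 0.18) without E3-10 1 and E4-10 2 and 0.07 (SE 0.18) with library totals in place of TMM factors, so its sign is not settled. Foxp2 was at 17.45, 13.1, 23.8, 34.2, 26.1, 22.2, 28.6 and 20.4 CPM against 22.5 to 55.6 CPM (median 33.2). Its log2 difference was -0.66 (SE 0.19), with overlapping sets.

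In all, 7 of the 10 members did not overlap between the sets and were higher in the 8, the 5 restricted members with Calb1 and Aldoc. None was lower without overlap. Over all genes tested, 5.97% did not overlap and were higher in the 8, and 7.72% did not overlap and were lower. Without E3-10 1 the count of members was 8, Itpr1 being added. The median log2 difference of the 10 was 2.33, against 0.035 over all genes tested.

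The promoters of 5 members (Pcp2, Slc1a6, Pcp4, Rgs8 and Aldoc) are in the RefSeq table at hand, which is of build GRCm38.p6 and not of the mm39 build the counts were made on. Those of 3 are shown because Pcp2 and Slc1a6 did not overlap between the sets and Pcp4 did. Each runs from 250 bases before to 50 bases after the start of the gene, 5′ to 3′ on the gene's strand, and capitals mark AGGTCA, the half-site of many nuclear receptors including the retinoic acid receptor-related orphan receptors, on either strand. The windows are chr8:3625498-3625797 on the minus strand for Pcp2, chr10:78780246-78780545 on the plus strand for Slc1a6 and chr16:96467356-96467655 on the plus strand for Pcp4.
Pcp2: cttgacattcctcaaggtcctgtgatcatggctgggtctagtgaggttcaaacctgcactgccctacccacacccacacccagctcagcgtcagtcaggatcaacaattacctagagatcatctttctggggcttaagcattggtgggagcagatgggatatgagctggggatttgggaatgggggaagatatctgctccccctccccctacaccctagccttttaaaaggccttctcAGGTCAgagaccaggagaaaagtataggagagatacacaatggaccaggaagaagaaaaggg
Slc1a6: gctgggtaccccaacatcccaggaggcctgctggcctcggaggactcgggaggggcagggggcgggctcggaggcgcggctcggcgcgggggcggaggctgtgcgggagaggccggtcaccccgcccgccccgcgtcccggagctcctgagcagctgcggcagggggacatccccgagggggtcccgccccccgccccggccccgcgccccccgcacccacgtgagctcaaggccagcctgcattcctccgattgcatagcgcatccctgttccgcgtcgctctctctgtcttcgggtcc
Pcp4: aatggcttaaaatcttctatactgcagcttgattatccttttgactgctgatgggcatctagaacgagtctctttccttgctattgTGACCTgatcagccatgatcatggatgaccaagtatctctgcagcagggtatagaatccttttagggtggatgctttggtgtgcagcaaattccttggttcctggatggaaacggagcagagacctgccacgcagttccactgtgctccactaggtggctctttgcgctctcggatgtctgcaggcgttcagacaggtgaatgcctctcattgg
Pcp2 held 1 match and Pcp4 held 1, the latter as TGACCT on the opposite strand, and Slc1a6, Rgs8 and Aldoc held none in these windows. Of 32851 promoters of this length in the table, 16.3% hold the motif on either strand. It was therefore present in a member that differed widely between the sets and in one that did not. A match of letters is not evidence of a bound site.

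The other genes of Purkinje cells followed the same gradient. Of 25 further genes known from Purkinje cells, all tested, 17 did not overlap between the sets and were higher in the 8, with a median log2 difference of 2.145. The largest differences were those of Skor2, a transcriptional co-repressor of Purkinje precursors, with 7.39 (SE 0.42), of Arhgef33, a guanine nucleotide exchange factor, with 6.10 (SE 0.21), and of Lhx1, a LIM homeodomain factor, with 4.24 (SE 0.40). Towards the other end were the calcium pumps Atp2b2 with 0.05 (SE 0.13) and Atp2a2 with 0.25 (SE 0.08), both overlapping. In the pathway through phospholipase C to IP3 and stored calcium, 4 of 14 genes did not overlap and were higher in the 8, and the median was 1.06. Homer3, a scaffold protein of the postsynaptic site that binds the IP3 receptor, led with 3.94 (SE 0.23), then Inpp5a, a phosphatase of IP3, with 2.145 (SE 0.13). The lowest were Itpka, a kinase of IP3 that is abundant in forebrain, with -1.575 (SE 0.26), Gnaq with -0.27 (SE 0.06) and Stim1 with -0.02 (SE 0.05), each overlapping.

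Purkinje cells fall into zebrin-positive and zebrin-negative stripes, and genes of both were higher in the 8. Of 4 zebrin-positive genes, Slc1a6 (3.32, SE 0.17), Plcb3 (1.33, SE 0.12) and Aldoc (0.99, SE 0.07) did not overlap, and Gabbr2, a GABA-B receptor subunit, overlapped at -0.39 (SE 0.11). Of the zebrin-negative genes, Ebf2 (2.89, SE 0.23) did not overlap, and Plcb4 overlapped at 1.09 (SE 0.19). These lists are short and share members with the other lists.

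Markers of other cells of the region moved with the Purkinje genes. Among granule cell genes 10 of 12 did not overlap and were higher in the 8 (median log2 difference 3.77), led by Gabra6 with 9.65 (SE 0.52), Cbln3 with 8.76 (SE 0.455) and Fat2 with 8.68 (SE 0.40). Brainstem and spinal hindbrain genes gave 12 of 17 (median 7.56), led by Hoxa3 with 9.57 (SE 0.405), Hoxb5 with 9.29 (SE 0.52) and Hoxb3 with 9.05 (SE 0.51). Bergmann glia genes gave 2 of 4 (median 1.18). Other cerebellar neurons gave 2 of 6 higher and 1 lower, and astrocytes gave 3 of 10 higher and 1 lower. In the opposite direction, 5 of 8 genes of cortical excitatory neurons did not overlap and were lower in the 8 (median -3.72), as were 2 of 10 genes of striatal medium spiny neurons (median -2.01). Olfactory bulb and neuroblast genes gave 2 of 8 in each direction, and none of the hippocampal (8), thalamic (8) or hypothalamic (10) genes failed to overlap. The 2 higher olfactory genes were Calb2 and Eomes, and Eomes is also 1 of the 2 higher genes of other cerebellar neurons. The 2 lower were Dcx and Sp8. The mean log2 CPM of the 12 granule genes ran from 6.13 to 8.24 in the 8 against 1.75 to 4.00 in the 16, and that of the 17 brainstem genes from 1.44 to 4.27 against -3.46 to -1.93. The share that tissue makeup has in the differences of the 10 members was not tested.

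**Figure D2:**
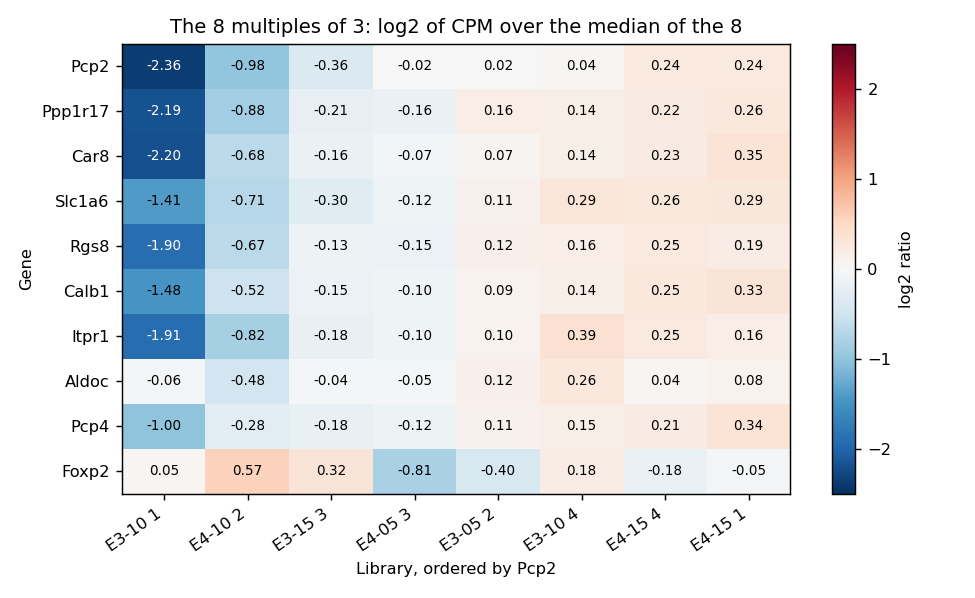
The log2 ratio of CPM in each of the 8 libraries in columns that are multiples of 3 to the median of the 8, by gene (rows) and library (columns, ordered by Pcp2), as colour and number. The column of E3-10 1 is deep blue for Pcp2 (21.4 CPM against a median of 110.3) and pale for Aldoc (1568 against 1631) and Foxp2 (23.8 against 23.0).

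With all 8 libraries kept, the members varied together, except Aldoc and Foxp2. E3-10 1 held 19.2% of the median of the other 7 for Pcp2, 19.9% for Ppp1r17, 20.7% for Car8, 24.7% for Rgs8 and 24.9% for Itpr1. Its shares were larger for Calb1 (33.6%), Slc1a6 (34.9%) and Pcp4 (46.2%), and it was at 93.6% for Aldoc and 107.5% for Foxp2. Pcp2, Ppp1r17 and Car8, the members with the smallest share left in the 16 libraries, thus had the lowest shares in E3-10 1. E4-10 2 was the next lowest of the 8 for Pcp2, Ppp1r17, Car8, Slc1a6, Rgs8, Calb1, Itpr1 and Pcp4. The other 6 lay within narrower bounds, as with 86.2 to 130.2 CPM for Pcp2.

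Other cells of the region did not all follow. In E3-10 1 the granule cell gene Gabra6 stood at 22.0% of the median of the other 7 and Cbln3 at 24.2%, close to the Purkinje shares. Brainstem genes went the other way, with Slc6a5, the glycine transporter of inhibitory hindbrain neurons, at 445%, Glra1, a glycine receptor subunit, at 460%, and Hoxb5 at 712%. The mean log2 CPM in E3-10 1 was 6.31 for the 5 restricted members, 6.13 for granule cells and 4.27 for brainstem. In E4-10 2 the same means were 7.535, 7.17 and 1.71, so brainstem genes were not raised there. E4-10 2 held 6099 CPM of Gh, the growth hormone of the pituitary. Whether these makeups account for the lower Purkinje genes was not tested.

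**Figure D3:**
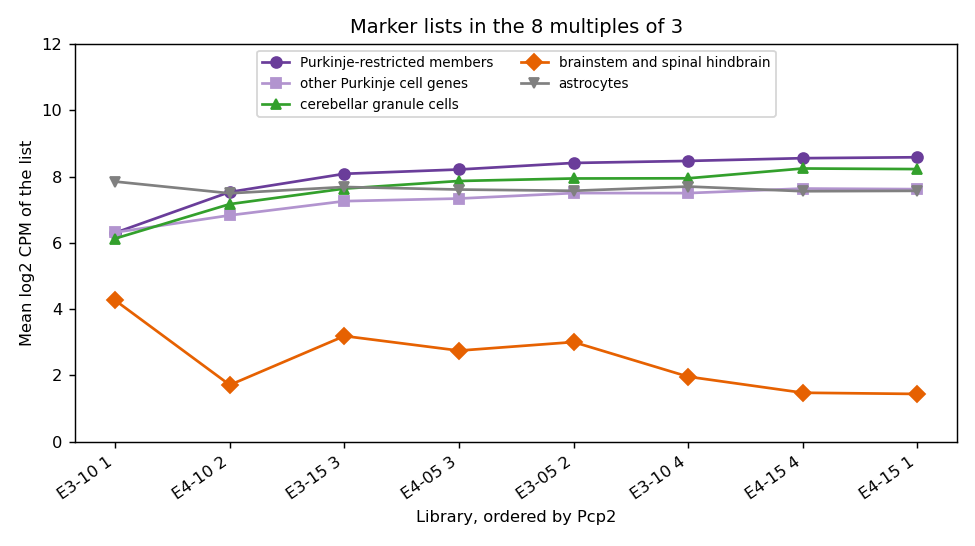
Mean log2 CPM of 5 gene lists in each of the 8 libraries in columns that are multiples of 3, ordered by Pcp2 from left to right; the lines join the libraries for reading only. The restricted Purkinje members, the other Purkinje genes and the granule cell genes are lowest in E3-10 1, where the brainstem genes reach 4.27, and the astrocyte genes are nearly level.

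Pairs of members were closely correlated across the 8 libraries, but their proportions were not all constant. Over the 28 pairs of the 8 members other than Aldoc and Foxp2, Pearson r of log2 CPM lay between 0.96 and 1.00 (median 0.985). Aldoc and Foxp2 did not vary closely with the rest when all 8 libraries were kept, so leaving them out in part fixes that high range. Without E3-10 1 it lay between 0.835 and 0.99 (median 0.97, 7 libraries), and without E3-10 1 and E4-10 2 between 0.70 and 0.99 (median 0.93, 6 libraries). Points of a library share its depth and its tissue, and the r are descriptions. The ratio of CPM of Car8 to Pcp2 ran from 11.2 to 14.3 across the 8, and that of Ppp1r17 to Pcp2 from 1.61 to 2.02. For Rgs8 it ran from 8.42 to 12.8 and for Itpr1 from 20.6 to 29.9. It spread more for Slc1a6 (0.988 to 2.06), Calb1 (6.54 to 12.8) and Pcp4 (3.20 to 8.84). These 5 ratios were all highest in E3-10 1. Aldoc to Pcp2 ran from 12.9 in E4-15 4 to 73.2 in E3-10 1, and Foxp2 to Pcp2 from 0.1201 in E4-05 3 to 1.11 in E3-10 1. Over the same 8 libraries r with Pcp2 was 0.45 for Aldoc and -0.36 for Foxp2. For Aldoc it was 0.86 without E3-10 1 and was 0.35 without E3-10 1 and E4-10 2, so it turned on which of these libraries were kept. Of the 8 members other than Aldoc and Foxp2, Pcp2 gave the lowest r with Aldoc in those 6 libraries, and Itpr1 the highest (0.86). Without E3-10 1 alone, the r of Aldoc with these members ran from 0.75 for Pcp4 to 0.97 for Itpr1.

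By the highest r over the 8 libraries, among 15084 genes with a mean of at least 1 CPM, the genes most like Pcp2 were En2, Icmt and Atp2a3 (each 1.00). Those most like Ppp1r17 were Rgs8, Zranb2 and Homer3 (each 1.00), and those most like Calb1 were Homer3, Gabra6 and Sycp1 (each 1.00). Of these, En2 and Gabra6 are on the granule cell list. For Aldoc the closest were Pla2g7, Septin4 and Gm14204 (each 0.97), and for Foxp2 Snx16 (0.97), Ogfod1 and Brinp3 (each 0.95). With 8 libraries, of which E3-10 1 lay far off, such values are high for many genes.

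Outside the 8 libraries the common pattern was gone. Over the 16, r between the same 28 pairs ran from -0.82 to 0.66 with a median of 0.04. The lowest was that of Itpr1 with Slc1a6 and the highest that of Pcp4 with Rgs8. Pcp2, at 5 to 35 counts, was too sparse there for its r to be read, yet its pairs are among the 28 and enter the median. The members went with differing marker lists. Aldoc went with the mean of 10 astrocyte genes (r = 0.86). Itpr1 went with cortical excitatory genes (0.73) and against thalamic ones (-0.79), whereas Rgs8 did the reverse (-0.81 and 0.64). Calb1 and Pcp4 went with striatal medium spiny genes (0.66 and 0.59), and Ppp1r17, at 7 to 161 counts, with hypothalamic genes (0.68). Slc1a6 went with thalamic genes (0.75), with the 25 other Purkinje genes (0.78), with granule cell genes (0.74) and with brainstem genes (0.60). Rgs8 likewise went with the other Purkinje genes (0.725) and with the zebrin-negative genes (0.88), whereas Itpr1 ran against the other Purkinje (-0.80) and granule cell (-0.80) genes. Foxp2 ran against cortical genes (-0.75) and with Rgs8 (0.79).

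**Figure D4:**
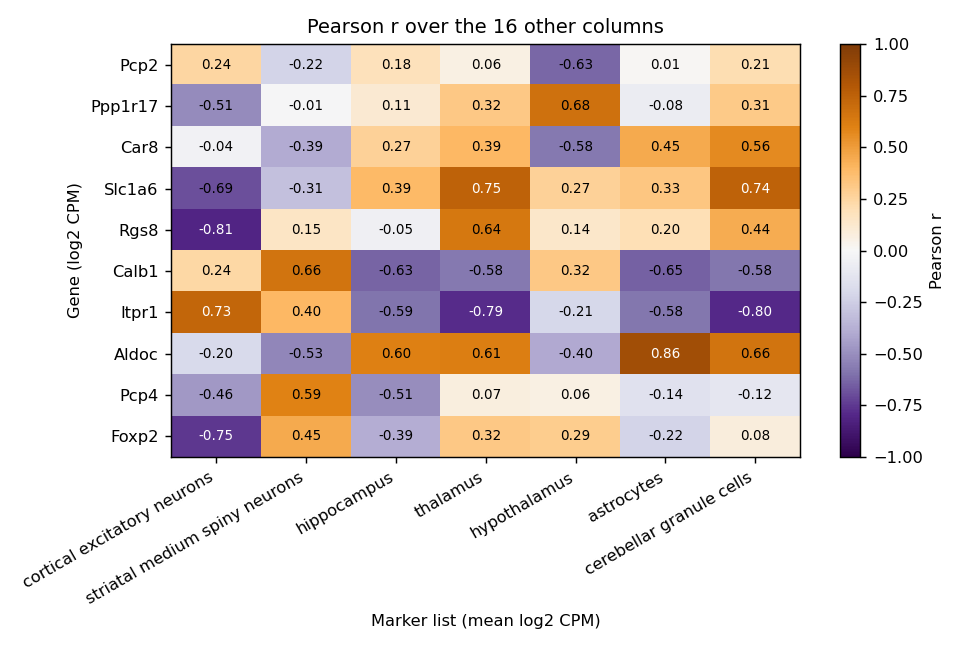
Pearson r over the 16 libraries outside the multiples of 3 between log2 CPM of each gene (rows) and the mean log2 CPM of 7 marker lists (columns), as colour and number. Aldoc is highest with astrocytes (0.86), Itpr1 with cortical excitatory neurons (0.73) and Slc1a6 with thalamus (0.75).

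The single genes closest to each member over the 16, among 14941 genes with a mean of at least 1 CPM, were as follows. Nearest to Aldoc was Lcat, a cholesterol-esterifying enzyme secreted by astrocytes, with r = 0.94, followed by Frmpd1 (0.92) and Bin1 (0.905). Nearest to Pcp4 were Nexn (0.95), Gdpd5 (0.88) and Gabra4 (0.87), and nearest to Calb1 were Mettl9 (0.89), Erlin1 (0.88) and Arpp21 (0.87), a phosphoprotein of striatal neurons. Itpr1 had Gm19410 (0.98), Tacc1 (0.96) and Lzts3 (0.96), and Rgs8 had Lrtm2 (0.95), Parl (0.93) and the metabotropic glutamate receptor Grm4 (0.92). Slc1a6 had Adgrg2, Nrbp1 (each 0.95) and the forkhead factor Foxb1 (0.93). For Foxp2 they were Cldn12 (0.92), Prkch and Esd (each 0.89), for Ppp1r17 Plxna3, Dner (each 0.91) and Wdr6 (0.89), and for Car8 Sugt1, Gk (each 0.81) and Ogfrl1 (0.80), the loosest of the members.

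The question that the group names pose is whether E4 differed from E3, and no member passed the test. Within the 8 libraries, Pcp2 was at 111.5, 21.4, 113.1 and 86.2 CPM in the 4 E3 libraries and at 109.0, 55.9, 130.2 and 130.1 CPM in the 4 E4 libraries, so the groups overlapped. Its difference, E4 minus E3, was 0.14 on the log2 scale (SE 0.375, edgeR adjusted p = 0.966). Car8 gave 0.21 (SE 0.30, edgeR adjusted p = 0.937), the largest of the members in size, and Aldoc -0.19 (SE 0.13, edgeR adjusted p = 0.802), the smallest p of the members. Of the 10 members 0 were called, and of all genes tested 0 (0%) were called, with 1406 at an unadjusted p under 0.05. DESeq2 called 5 genes and limma-voom 0, none of them a member. Of the members, 7 lay above 0, but without E3-10 1, an E3 library, Pcp2 was at -0.095 (SE 0.30), Car8 at -0.07 (SE 0.18), Itpr1 at -0.185 (SE 0.32), Calb1 at -0.04 (SE 0.20), Slc1a6 at -0.06 (SE 0.25) and Rgs8 at -0.11 (SE 0.22). The sign of these differences therefore rested on that library.

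In the other 16 libraries, 8 of each E code, the members lay between -0.06 for Slc1a6 (SE 0.21) and 0.56 for Ppp1r17 (SE 0.46), each with an edgeR adjusted p of 1. None was called, against 0 (0%) of all genes by edgeR (336 at an unadjusted p under 0.05), DESeq2 and limma-voom. Ppp1r17 was at 0.25 without E4-05 1, whose 3.54 CPM was the highest of the 16. The difference of the E4 minus E3 values between the sets was also called for 0 members and 0 (0%) of all genes by the 3 tools (958 at an unadjusted p under 0.05 in edgeR). For Ppp1r17 it was -0.605 (SE 0.68) and for Pcp2 -0.03 (SE 0.58).

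**Figure D5:**
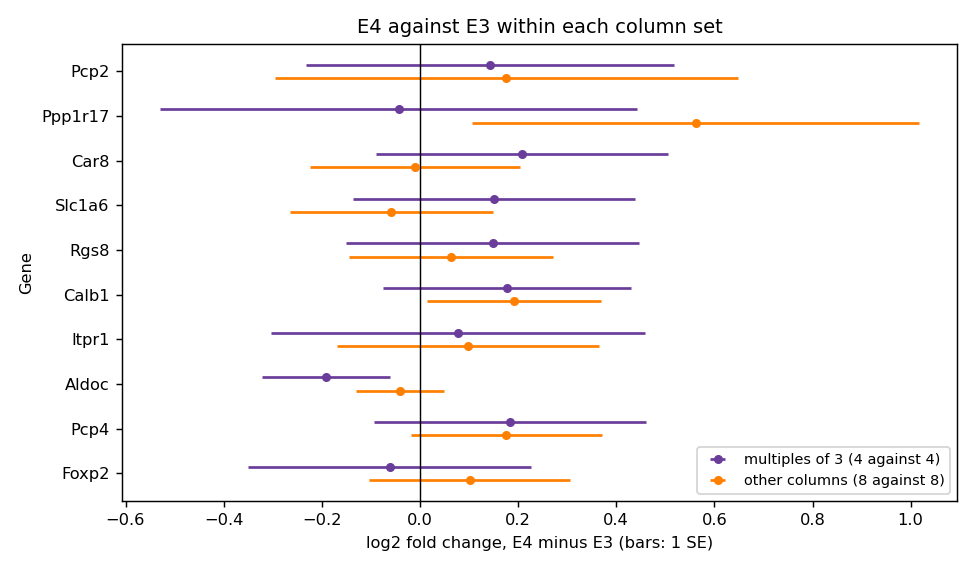
The log2 fold change of E4 minus E3 for each gene in the 8 libraries in columns that are multiples of 3 (purple, 4 against 4) and in the other 16 (orange, 8 against 8); bars are 1 SE of the edgeR fit. Most bars cross 0, and Ppp1r17 in the other columns lies farthest from it at 0.56.

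Averaged over time codes in a fit with a term for the column set, the members lay between -0.09 for Aldoc (SE 0.07) and 0.27 for Ppp1r17 (SE 0.34), with a median of 0.09 against 0 over all genes tested. Leaving out E3-10 1 moved Pcp2 from 0.15 to -0.02, Car8 from 0.065 to -0.04 and Calb1 from 0.19 to 0.11. Ppp1r17 was at 0.05 without E4-05 1. No member was called, nor was any other gene (0%) by edgeR (557 at an unadjusted p under 0.05), DESeq2 or limma-voom. At time code 05 the same counts were 0 members and 0 (0%) of all genes (549 at an unadjusted p under 0.05), and at time code 15 they were 0 and 0 (0%, with 391), again 0 by DESeq2 and limma-voom.

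At time code 10 edgeR called 2 genes, 0.00979% of those tested, Lmod1 and Cp, and no member; 1023 were at an unadjusted p under 0.05, and DESeq2 called 40 genes and limma-voom 4, again no member. Aldoc came nearest. In the multiples of 3 it was at 1568 and 1957 CPM in E3-10 1 and 4 and at 1170 CPM in E4-10 2. In the other columns it was at 830.6 and 896.0 CPM in E3-10 2 and 3 and at 801.5, 715.5 and 696.6 CPM in E4-10 1, 3 and 4. Within both sets every E4 value thus lay below every E3 value. Of the 10 astrocyte genes 0 lay above 0 in this comparison, with a median log2 difference of -0.20 against -0.002 over all genes tested, and none was called. Their mean log2 CPM was 7.47 to 7.85 in the E3-10 libraries and 7.165 to 7.496 in the E4-10 libraries. Their part in the Aldoc difference was not tested. The log2 difference was -0.32 (SE 0.12) and did not pass (edgeR adjusted p = 0.943), although it was under 0.05 before adjustment. Without E4-10 2, the library with much Gh, it was -0.21 (SE 0.13).

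Time codes gave no call among the members either. Each time code has titled months of its own, so time code and month cannot be told apart in these contrasts. For time code 10 minus 05, Ppp1r17 had the smallest p of the members, with a log2 difference of -0.895 (SE 0.42, edgeR adjusted p = 0.999), also under 0.05 before adjustment only. In the multiples of 3 it was at 219.4 and 175.9 CPM at time code 05 and at 43.2, 107.0 and 216.9 CPM at time code 10, which overlap. The other columns, at only 7 to 161 counts, also enter the fit. There it ran from 0.338 to 3.54 CPM at time code 05 and from 0.145 to 1.505 CPM at time code 10, which overlap too. The difference was -0.59 without E4-05 1 and -1.405 without E3-10 4. No gene of the table (0%) was called by edgeR, with 824 at an unadjusted p under 0.05; limma-voom called 0 and DESeq2 18, no member among them. A fit with a term for each set of 3 adjacent columns called Pcp4, Car8, Slc1a6 and Rgs8 lower at time code 10, Rgs8 by -2.30 (SE 0.31, edgeR adjusted p = 0.0101). In that fit time codes 05 and 10 meet in a single set of columns, where E3-10 1 is the only library of time code 10. Without E3-10 1, in the fit without those terms, Rgs8 was at -0.03 (SE 0.14) and Car8 at 0.03 (SE 0.115).

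For time code 15 minus 05, edgeR called 11 genes, 0.0538% of those tested, and no member (931 at an unadjusted p under 0.05). The members lay between -0.15 for Ppp1r17 (SE 0.42) and 0.30 for Pcp2 (SE 0.36). DESeq2 called 36 genes and limma-voom 0, no member among them. In none of the comparisons did edgeR call a member of the other Purkinje list, the IP3 and calcium list or the zebrin lists.

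Pcp2 and Pcp4 share exon sequence with a neighbour, and the strand setting of the counting is not given in the sources used here. In GENCODE M21, which is of another build than the counts, 51.5% of the exon bases of Pcp2 overlap Pet100 on the opposite strand, and 23.7% of those of Pcp4 overlap Igsf5 on the same strand. Pet100, a mitochondrial assembly factor, differed by -0.005 on the log2 scale between the sets, where Pcp2 differed by 7.95. For Itpr1 and Rgs8 the overlaps were under 1% each.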

How the data were processed

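TRIzol extraction, a NEBNext Ultra library kit and an Illumina NovaSeq were used, per the labels. Per the submitters' processing notes, which name HISAT2 2.1.0, featureCounts 2.0.6 and the build mm39, the authors deposited raw counts per gene symbol; annotation and strand setting are not given in the sources used here. Among counts of 1 to 19, the even ones made up 62.6% to 70.8% per library, so some pairs of reads may count as 2.

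Each column was joined to its library by the number in the label. The 10 genes, the gene lists and the tests were chosen with earlier results of these data known. Genes were kept with filterByExpr over the 6 groups, scaled with TMM factors and tested in edgeR 4.0.16 (R 4.3.3) with quasi-likelihood F tests, Benjamini-Hochberg adjusted over 20437 genes at 0.05. A first fit had 6 group coefficients and a column-set term, and gave the set differences, the time code and the E4 minus E3 contrasts by time code. Another had 4 coefficients (set by E code) and time code. The script was tested on simulated data. The SE is the absolute log2 fold change over the square root of F. Log2 CPM used a prior count of 2. The named genes are the members, genes of a list past the threshold, the 3 largest set differences of a list in each direction, and the 3 genes with the highest r to each member. Values of some genes that this rule names are not reported here. Alternatives used DESeq2 1.42.0 and limma 3.58.1, other scaling, filters, terms and thresholds, and libraries left out. No positions on mm39 are given, since the references at hand are of GRCm38.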

Additional observations from a re-analysis of the deposited data

Results flagged for a closer look

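Within the column sets, the E3 and the E4 libraries were checked for each member, and a library was picked out where its gap to the nearest of the others was a large part of the range of its group (Dixon's test at the 95% level). Of 40 groups checked, 6 had such a library; chance alone gives about 1 in 20.

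E3-10 1 was far below the other 3 E3 libraries in the multiples of 3 for Pcp2, with 4.42 log2 CPM against 6.43 for the nearest. It was likewise far below for Car8 with 8.12 log2 CPM (nearest 10.16), for Ppp1r17 with 5.43 (nearest 7.40) and for Rgs8 with 8.09 (nearest 9.86). These 4 results concern 1 library and genes that varied together, so they are not separate. In the other columns, Aldoc in E3-05 1 was low among 8 E3 libraries, with 9.38 log2 CPM against 9.64 for the nearest, and Rgs8 in E4-05 4 was high among 8 E4 libraries, with 7.93 log2 CPM against 7.40. E3-05 1 was not the lowest of the 16 for Aldoc. E4-05 1 was at 9.30 log2 CPM and was not picked out among the 8 E4 libraries.

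The mean of the astrocyte list in E3-05 1 was 6.97 log2 CPM, the lowest of the 16. The mean of the thalamic list in E4-05 4 was 6.99 log2 CPM, the highest of the 16. E4-05 4 was also the highest of the 16 for the other Purkinje genes (5.52) and the zebrin-negative genes (5.16). The same held for brainstem genes (-1.93) and other cerebellar neurons (3.80). It was the lowest of the 16 for cortical excitatory genes (4.16). The part of these lists in the levels of Aldoc and Rgs8 was not tested.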

How the results depend on the processing

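The count of 7 members that did not overlap between the column sets was 7 under RLE factors, library totals, a prior count of 0.5 and without E3-05 4 and E4-10 2, and 7 to 8 when 1 library was left out; it was 8 without E3-10 1 and E4-10 2 (added after the data were seen). Folds between the sets moved by less than the spread within a set in every alternative run.

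No member was called in a comparison of E codes under any alternative. For time code 10 minus 05, a term for each set of 3 adjacent columns called 4 members and 418 genes (Pcp4 at -1.35, Car8 at -2.26, Slc1a6 at -1.82, Rgs8 at -2.30); by its construction that contrast rests on E3-10 1. DESeq2 called 18 genes there, and leaving out 1 library gave 0 to 2.

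Counts of all genes were less steady. For E4 minus E3 at time code 10 (2 genes), library totals, the replicate block and a 2-fold minimum each gave 1, no filter 5, limma-voom 4 and DESeq2 40. Terms for adjacent columns, no column-set term, an adjusted p under 0.01, and leaving out either pair of libraries (E3-05 4 with E4-10 2, or E3-10 1 with E4-10 2) gave 0, and leaving out 1 library gave 0 to 3. It was 0 without any of E3-10 1, 2 or 3 or E4-10 1, 2 or 4. For time code 15 minus 05 (11 genes), the stricter filter, month as a term and a 2-fold minimum gave 7, the replicate block 1, and DESeq2 36. Terms for adjacent columns, no column-set term, an adjusted p under 0.01, limma-voom, and without E3-05 4 and E4-10 2 gave 0. Leaving out 1 library gave 0 to 10; it was 0 without any of E3-05 1, E4-05 1, 3 or 4, E3-10 3 or 4, E4-10 3, E3-15 2, 3 or 4, or E4-15 2, 3 or 4. For E4 minus E3 in the multiples of 3, DESeq2 gave 5. Apart from the terms for adjacent columns, the causes were not tested.

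Libraries with the same number at the start of the library name did not vary together more than others. The median r was -0.015 over 60 pairs (-0.38 to 0.19), against 0.013 over 180 pairs with different numbers. No pairing by number was seen, but the check cannot exclude one, since the libraries also differ in tissue makeup. The titles number the replicates anew within each month, and pairing by that number was not checked. The replicate block called no member. Depth limits Pcp2 and Ppp1r17 in the 16 libraries, at 5 to 35 counts for Pcp2. If some pairs of reads count as 2, those counts stand for fewer fragments.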
